A study of Drosophila melanogaster with 2 samples.

Results

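Nuclear genes of the mitochondrial respiratory chain were examined for peaks of Huckebein, a zinc finger transcription factor known from the terminal gap gene system of Drosophila. The genes were the 88 protein-coding genes on 2L, 2R, 3L, 3R, 4 and X whose symbol starts with ND- (complex I), Sdh (complex II), UQCR- (complex III), COX (complex IV) or ATPsyn (complex V), of 13945 protein-coding genes in all. They comprise 40 genes of complex I, 8 of complex II, 9 of complex III, 16 of complex IV and 15 of complex V. The prefix Sdh also takes in Sdhaf3, which encodes an assembly factor rather than a subunit. The data are chromatin immunoprecipitation sequencing (ChIP-seq) peak lists from whole embryos aged 0 to 24 h of the strain hkb-GFP, which carries hkb fused to eGFP by an insertion targeting hkb. There was 1 group with 2 biological replicates, both from the same strain, and no second condition. The antibody recognised GFP, per the description in the labels, whose antibody field names hkb. Chromatin was sonicated to 200 to 800 bp, and no control sample was used here. Whole embryos were the input, so a site occupied in few cells and a site weakly occupied in many cannot be told apart.

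The respiratory chain passes electrons from NADH (complex I) or succinate (complex II) through complex III to oxygen at complex IV. The proton gradient built on the way drives ATP synthesis by complex V. Some subunits of complexes I, III, IV and V are encoded in mitochondrial DNA, and the genes studied here supply the nuclear share. In Drosophila, many duplicated copies of these genes are known to be expressed mainly in the testis.

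A gene was counted as holding a peak when a summit lay within 500 bp of a start of 1 of its own transcripts. The combined list, called on both replicates together, held 7220 peaks, that of replicate 1 held 5260 and that of replicate 2 held 4347. Read totals are not in these lists, so depth is unknown. Each peak carries a signal value, a score given by the authors that ranks peaks within a list, and values from different lists are on scales of their own. Combined, replicate 1 and replicate 2 below name the list a value comes from.

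The sequences between divergent starts come first. Many of the peaks described here lie between a start of a respiratory chain gene and a start of a neighbour. Each runs 5′ to 3′ on the strand of the respiratory chain gene, in dm6. Capitals on the left mark the first 5 transcribed bases at a start of the neighbour. Those in the middle mark the 5 bases centred on the summit of the combined list. Those on the right mark the first 5 transcribed bases at a start of the respiratory chain gene. For COX5A that start is an internal one, and the whole window lies inside the annotated gene. Shown are the pairs whose window is at most 300 bases, apart from ND-MWFE and ND-B15. They are ND-51 with CG13994 at 2L:6062747-6062999, ND-MNLL with p115 at X:7893788-7894041, COX5A with glo at 3R:11819410-11819609, COX6B with CG33932 at X:19744325-19744441, and ATPsynCF6 with Sec13 at 3R:23356054-23356288. COX5A is read on the plus strand and the others on the minus strand. Further genes also had a start within 500 bp of the summit, CG45089 at ND-MNLL and CG18809 and Rpp20 at COX6B.
ND-51: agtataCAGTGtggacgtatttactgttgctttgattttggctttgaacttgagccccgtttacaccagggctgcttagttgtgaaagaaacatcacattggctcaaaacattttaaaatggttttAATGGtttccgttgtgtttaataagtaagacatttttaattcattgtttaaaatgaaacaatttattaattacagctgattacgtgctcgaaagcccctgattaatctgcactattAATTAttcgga
ND-MNLL: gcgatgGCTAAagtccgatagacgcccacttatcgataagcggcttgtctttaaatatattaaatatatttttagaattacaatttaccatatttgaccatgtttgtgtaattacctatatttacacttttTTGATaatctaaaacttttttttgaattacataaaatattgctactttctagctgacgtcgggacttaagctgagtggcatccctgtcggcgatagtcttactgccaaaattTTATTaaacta
COX5A: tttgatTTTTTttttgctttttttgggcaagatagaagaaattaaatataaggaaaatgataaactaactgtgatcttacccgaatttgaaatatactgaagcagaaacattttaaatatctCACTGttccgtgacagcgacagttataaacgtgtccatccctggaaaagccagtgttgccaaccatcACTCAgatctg
COX6B: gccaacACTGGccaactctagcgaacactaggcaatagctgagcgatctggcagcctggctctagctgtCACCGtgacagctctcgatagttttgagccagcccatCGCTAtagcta
ATPsynCF6: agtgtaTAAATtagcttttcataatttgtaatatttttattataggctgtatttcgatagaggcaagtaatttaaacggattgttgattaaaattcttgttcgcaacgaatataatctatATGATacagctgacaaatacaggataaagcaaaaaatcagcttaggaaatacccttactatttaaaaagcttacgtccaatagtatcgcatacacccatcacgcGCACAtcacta
In these 5 windows the summit lay 2 to 24.5 bp from the midpoint of the pair of starts. At ND-MWFE and ND-B15, which are short enough but not shown, it lay 45.5 and 70 bp from the midpoint. The 5 pairs shown are among the closer ones: over all 11 such pairs, described further on, the distance reached 180.5 bp with a median of 24.5 bp.

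The share of respiratory chain genes with a promoter peak lay close to that of all genes. In the combined list 21 of the 88 genes did (23.9%, 95% exact binomial interval 15.4 to 34.1), against 24.3% of all protein-coding genes. In replicate 1 it was 16 of 88 (18.2%) against 18.7% of all, and in replicate 2 it was 13 of 88 (14.8%) against 16.4%. Across the 3 lists, 9 genes held a peak in each (10.2%, 4.78 to 18.5, against 13.2%), 8 in 2 of the lists, 7 in 1 and 64 in none. That makes 24 genes in any of the lists (27.3%, against 26.1% of all). The shares lie near the background, so the count by itself shows nothing particular about these genes. For scale, cytosolic ribosomal protein genes held a peak of the combined list at 71 of 92 and mitochondrial ribosomal protein genes at 23 of 73 (31.5%). The intervals cover counting error over genes only. Differences between gene lists were not tested.

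**Figure D1:**
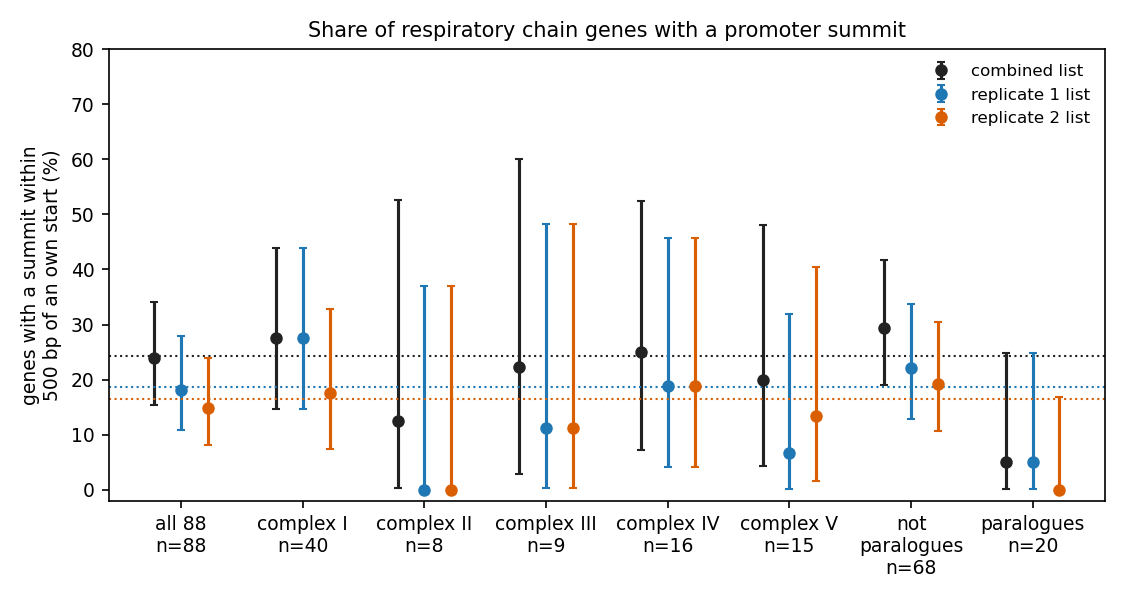
Share of genes with a summit within 500 bp of an own start, for the 88 respiratory chain genes, each complex, and genes with or without a paralogue symbol (x axis), in percent (y axis). Points are the 3 peak lists with 95% exact binomial intervals, and dotted lines are the shares of all protein-coding genes in the same list (24.3%, 18.7% and 16.4%); the interval of all 88 genes spans its line in each list.

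The share was between 12.5% and 27.5% in each complex. Complex I held a peak of the combined list at 11 of 40 genes (27.5%, 95% exact binomial interval 14.6 to 43.9), complex II at 1 of 8 (12.5%, 0.316 to 52.7), complex III at 2 of 9 (22.2%, 2.81 to 60.0), complex IV at 4 of 16 (25%, 7.27 to 52.4) and complex V at 3 of 15 (20%, 4.33 to 48.1). These intervals overlap widely and each spans the background. Of the 9 genes held by all 3 lists, 6 belong to complex I, 2 to complex IV and 1 to complex V. Complex II held no peak in either replicate's own list, where 0 of 8 has an exact binomial interval that reaches 36.9%.

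Complex I held the strongest peak of the set, at ND-ASHI (FBgn0029888), an accessory subunit of the membrane arm. Its peak at X:6679249-6679507 had a signal value of 548 (combined), 317 (replicate 1) and 224 (replicate 2), and ranked 237 of 7220. The peak is shared with Fum1, the fumarase gene of the tricarboxylic acid cycle: the summit lay at -265 bp from the ND-ASHI start and at -257 bp from the nearest Fum1 start, negative values being upstream, in an annotated Fum1 intron. The 50 bp on either side of this summit, at X:6679333-6679433 on the minus strand in dm6, hold a TATAAA, here in capitals, and are shown as the strongest site at any of the 88 genes.
ND-ASHI: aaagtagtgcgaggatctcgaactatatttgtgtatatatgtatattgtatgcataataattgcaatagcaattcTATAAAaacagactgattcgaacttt
Both replicates ranked this site well above the others of the set.

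Next came the flavoprotein part of complex I, where NADH is oxidised. At ND-24 (FBgn0030853), an iron-sulfur subunit, the signal value was 232 (combined), 128 (replicate 1) and 102 (replicate 2), with the summit 72 bp inside the gene, in its 5′ untranslated region. At ND-51 (FBgn0031771), which binds the flavin, it was 225 (combined), 139 (replicate 1) and 85.6 (replicate 2), with the summit in intergenic sequence 114 bp upstream. These are 2 of the 7 nuclear core subunits of complex I. The other core subunits ND-75, ND-49, ND-30, ND-23 and ND-20 held no peak in the 3 lists, and their highest candidates in the combined ranked list had signal values of 21.8 to 75.6.

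ND-MWFE, an accessory membrane arm subunit, had a signal value of 204 (combined) and 97.7 (each replicate). Its summit lay 156 bp upstream of its own start but 65 bp from that of TppII, in a TppII intron. ND-42, another accessory subunit, had 134 (combined), 78.4 (replicate 1) and 45.2 (replicate 2). Its strongest summit lay 332 bp upstream of ND-42 and 63 bp from the start of Cchl, which encodes cytochrome c heme lyase. For both genes the neighbour's start was thus the nearer one to this summit of the combined list. In replicate 1 the ND-42 summit lay at -331 bp. In replicate 2 the only ND-42 summit lay at -108 bp, so the value of 45.2 comes from another position. The combined list held a further ND-42 summit at -133 bp. ND-MNLL had 107 (combined), 55.6 (replicate 1) and 50.4 (replicate 2).

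The remaining complex I genes held a peak in 1 or 2 of the 3 lists. ND-B17 (133), ND-B22 (88.5) and ND-B15 (76.1) held a peak in the combined list and in replicate 1, while their highest candidates in replicate 2 had signal values of 54.0, 36.4 and 27.2. ND-B18 (69.8) and ND-13B (68.7) held one in the combined list alone. ND-SGDH went the other way: both replicates held it, with signal values of 40.5 and 52.6, and the combined list did not, where its candidate of 98.9 had a −log10 irreproducible discovery rate (IDR) of 1.73, below the value of 2 at which the lists start. ND-13A held a peak in replicate 1 alone (52.3). The complex I genes with no peak in any list were ND-15, ND-18, ND-19, ND-20, ND-20L, ND-23, ND-24L, ND-30, ND-39, ND-49, ND-49L, ND-51L1, ND-51L2, ND-75, ND-ACP, ND-AGGG, ND-B12, ND-B14, ND-B14.5A, ND-B14.5AL, ND-B14.5B, ND-B14.7, ND-B16.6, ND-B17.2, ND-B8, ND-MLRQ and ND-PDSW.

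**Figure D2:**
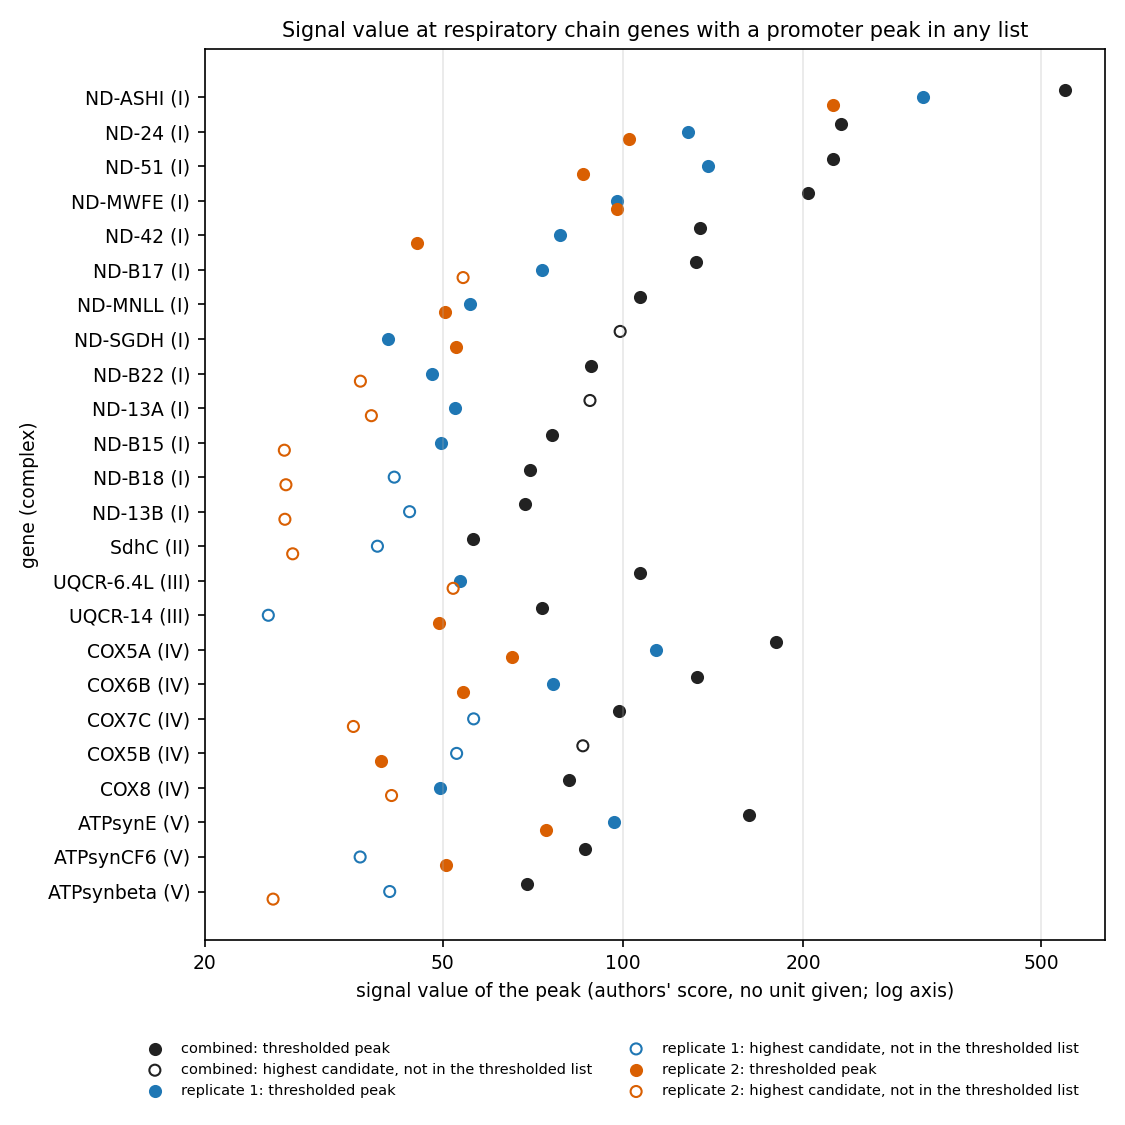
Signal value (x axis, log scale, no unit given) at the 24 respiratory chain genes with a promoter peak in at least 1 list (y axis, complex in brackets). Filled points are peaks of a thresholded list and open points are the highest candidate of the ranked list where the thresholded list holds none; ND-ASHI lies highest at 548, 317 and 224, and most open points lie in the lower part of the range.

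Complex IV peaks were at genes of nuclear subunits that surround the mitochondrially encoded catalytic core. COX5A (FBgn0019624) had a signal value of 180.3 (combined), 114 (replicate 1) and 65.1 (replicate 2). Its summit lay in an intron of COX5A, 65 bp upstream of its nearest own start and 114 bp from a start of glo. COX6B (FBgn0031066) had 133 (combined), 76.4 (replicate 1) and 54.0 (replicate 2). COX7C (98.7) held a peak in the combined list alone, and COX8 (81.2) also in replicate 1. COX5B held one in replicate 2 alone (39.5). The complex IV genes with no peak were COX4, COX4L, COX5BL, COX6AL, COX6AL2, COX6CL, COX7A, COX7AL, COX7AL2, COX7B and COX7CL.

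In complex V, ATPsynE (FBgn0038224), which encodes subunit e of the membrane part, had a signal value of 163 (combined), 96.6 (replicate 1) and 74.3 (replicate 2), with its summit 22 bp inside the gene. ATPsynCF6, the coupling factor of the peripheral stalk, held a peak in the combined list (86.5) and in replicate 2 (50.7). ATPsynbeta (69.0), the catalytic subunit, held one in the combined list alone. ATPsynC, the subunit of the rotating membrane ring, is a separate case. Its candidate had signal values of 122 (combined), 55.9 (replicate 1) and 61.4 (replicate 2), with −log10 IDR values of 3.11, 2.54 and 2.99, each past the threshold, yet none of the 3 thresholded lists holds it. In the combined list alone, 83 of 10560 protein-coding genes without a peak (0.786%) had a highest candidate past the threshold. Among respiratory chain genes without a peak it was 1 of 67, and the reason was not tested. The genes ATPsynB, ATPsynCF6L, ATPsynD, ATPsynF, ATPsynG, ATPsynGL, ATPsynO, ATPsynbetaL, ATPsyndelta, ATPsynepsilonL and ATPsyngamma held no peak.

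In complex II, SdhC, a membrane anchor subunit, held a peak in the combined list alone (56.2), and SdhA, SdhAL, SdhB, SdhBL, SdhCL, SdhD and Sdhaf3 held none. In complex III, UQCR-14 held one in the combined list (73.1) and in replicate 2 (49.3), and UQCR-6.4L in the combined list (107) and in replicate 1 (53.4). The UQCR-6.4L summit lay furthest from its own start, at -408 bp and inside an intron of Mipp1. UQCR-11, UQCR-11L, UQCR-14L, UQCR-6.4, UQCR-C1, UQCR-C2 and UQCR-Q held none. The genes just outside the 500 bp limit were ATPsynD, with its nearest summit at -781 bp, SdhA at -872 bp and ND-SGDH at -958 bp.

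Peaks at respiratory chain genes were of moderate strength. The median signal value in the combined list was 107 (range 56.2 to 548, n = 21), against 121 over the 3385 protein-coding genes with a promoter peak. Only 1 of the 21 reached 250, as did 655 of the 3385 (19.4%). In replicate 1 the median was 74.8 against 84.7, and in replicate 2 it was 54.0 against 75.5. Among the 9 genes held by all 3 lists, the replicate 1 signal value was 1.00 to 1.75 times that of replicate 2 (median 1.41), and over all such protein-coding genes the median was 1.26. Each list has its own scale, so these ratios do not measure a difference in binding. The summits of the 9 genes lay 7 to 223 bp apart in the replicates, with a median of 18 bp. The largest distance was at ND-42, whose ratio therefore compares different positions.

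Summits lay mostly upstream of the start. In the combined list 15 of 21 did (71.4%), against 77% over all protein-coding genes with a peak, and the median summit lay at -65 bp (quartiles -121 and 13) against -119 bp. The median was -98.5 bp in replicate 1 and -97 bp in replicate 2. These medians rest on different sets of genes (21, 16 and 13), so they do not show a shift of the summits between lists.

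**Figure D3:**
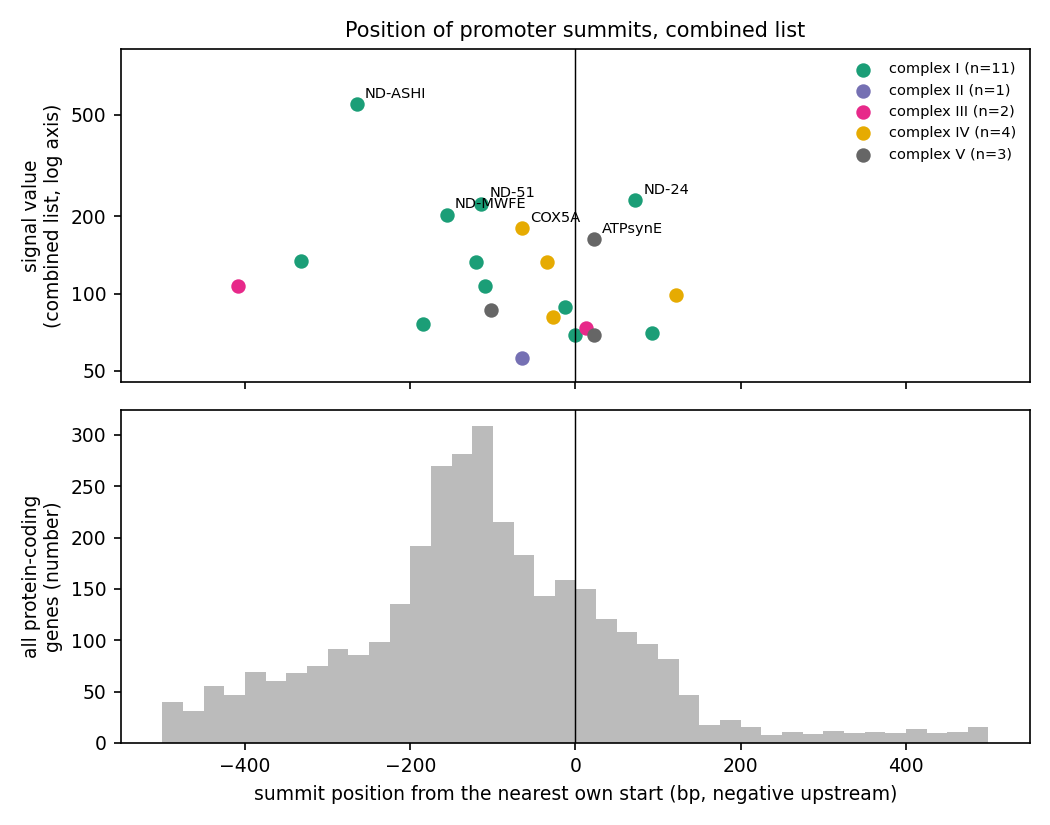
Position of the summit from the nearest own start in bp (x axis, negative upstream), for the combined list. The upper panel shows signal value (log axis) for the 21 respiratory chain genes with a peak, coloured by complex, and the lower panel the number of protein-coding genes per 25 bp; in both, most summits lie upstream, 15 of 21 and 2607 of 3385.

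Many of these genes have close neighbours. Another gene had a start within 500 bp of an own start at 43 of the 88 genes (48.9%, against 34.4% of all protein-coding genes). Of these 43 genes 16 held a peak of the combined list (37.2%), and of the 45 without such a neighbour 5 did (11.1%, 95% exact binomial interval 3.71 to 24.1). Over all protein-coding genes the shares were 37.2% and 17.5%. The 9 genes held by all 3 lists each had a neighbouring start, and 0 of the 45 others was held by all 3, which allows a share of up to 7.87%. The same share over all protein-coding genes without such a neighbour was 8.57%. With such a neighbour it was 9 of 43 (20.9%), against 22.1% of all such protein-coding genes.

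In 11 of the 21 genes (52.4%, against 35% of protein-coding genes with a peak) the summit lay between an own start and a divergent start of another gene. It was upstream of both of these starts, but not always of every start of the pair. At ND-ASHI, ND-MWFE, ND-42 and COX5A it lay inside an annotated transcript of 1 gene of the pair. The neighbours were Fum1 (ND-ASHI), CG13994 (ND-51), TppII (ND-MWFE), Cchl (ND-42), p115 (ND-MNLL), CG10151 (ND-B15), Tctp (SdhC), glo (COX5A), CG33932 (COX6B), VhaM9.7-b (COX8) and Sec13 (ATPsynCF6). The starts of these pairs were a median of 232 bp apart, against 307 bp over all protein-coding genes in this position. Summits lay a median of 24.5 bp from the midpoint, against 46.5 bp. They were farthest from it at COX8 (180.5 bp), ND-42 (134.5 bp) and SdhC (134 bp). A peak at such a pair cannot be assigned to 1 of its genes. Over the whole combined list another gene's start was nearer than the own start at 4 of the 21 genes. These were ND-ASHI, ND-MWFE, ND-42 and ND-B15, and another start was as near at 2, ND-MNLL and COX6B. The own start was nearest at 15 of the 21 (71.4%), close to the 73.1% over all protein-coding genes with a peak.

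Ranked lists also hold candidates that did not reach the thresholded lists. With thresholded peaks included, in the combined ranked list, 73 of the 88 genes had at least 1 candidate within 500 bp (83.0%, against 71.0% of all protein-coding genes). In replicate 1 it was 71 (80.7%, against 70.7%) and in replicate 2 it was 70 (79.5%, against 68.3%). Among genes without a thresholded peak of the combined list, 52 of 67 respiratory chain genes had a candidate (77.6%), against 6520 of 10560 protein-coding genes (61.7%), and ATPsynC is 1 of these 52. The median candidate had a signal value of 43.4 at these respiratory chain genes and 36.6 at these protein-coding genes. Genes such as ND-B14.5A (65.3, −log10 IDR 1.89), UQCR-C2 (56.2, 1.96) and ATPsynD (63.9, 1.88) lay just under the threshold in the combined list.

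**Figure D4:**
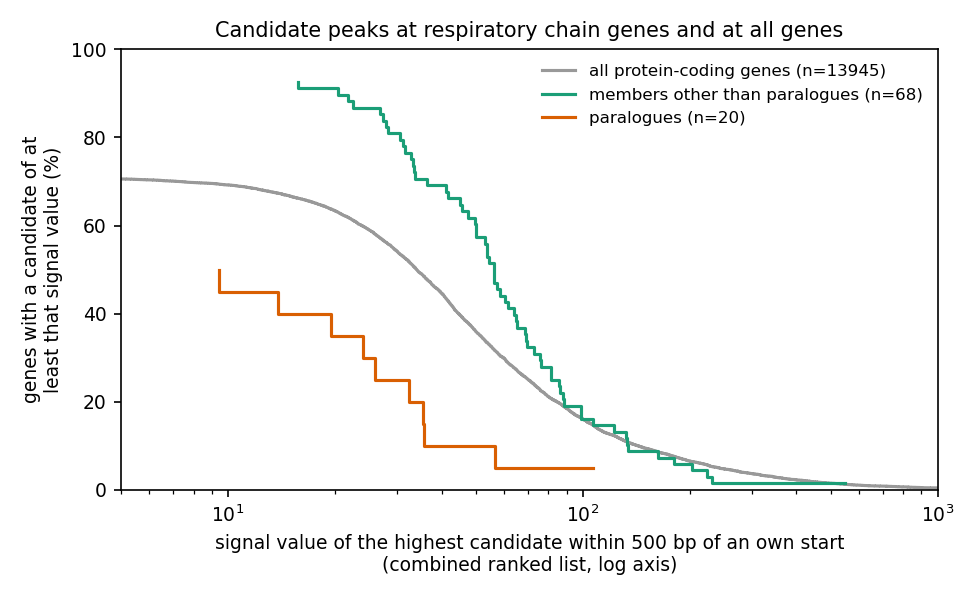
Percent of genes (y axis) whose highest candidate within 500 bp of an own start reaches the signal value on the x axis (log scale), in the combined ranked list. The line of the 68 respiratory chain genes without a paralogue symbol starts at 92.6% and that of the 20 paralogues at 50%, with all 13945 protein-coding genes between them at 71.0%.

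In most pairs of a base gene and its paralogue the base gene had the higher candidate, and differences in share were not tested. A gene was counted as a paralogue when its symbol is that of another of the 88 plus L, with or without a digit, which gave 20 genes. COX6AL, COX6AL2, COX6CL and ATPsynepsilonL, whose symbols also end in L or L2 but have no base symbol among the 88, were counted with the other 68. Of the 20 paralogues, 1 held a peak of the combined list (UQCR-6.4L, 5%, 95% exact binomial interval 0.127 to 24.9), and 20 of the other 68 did (29.4%, 19 to 41.7). A candidate within 500 bp was listed for 10 of the 20 paralogues and for 63 of the other 68 (92.6%). In 17 of the 20 pairs the base gene had the higher candidate, in 2 the paralogue did and in 1 neither had any, with the same numbers in each replicate. The 17 include pairs in which only the base gene had a candidate. ND-51 and COX7A are each the base gene of 2 pairs, so the pairs are not all separate. ND-51 had 225 in the combined list against 26.0 at ND-51L1 and no candidate at ND-51L2. ATPsynCF6 had 86.5 against 9.43 at ATPsynCF6L, and ATPsynbeta 69.0 against 23.9 at ATPsynbetaL. COX4 had 57.2 and COX4L had no candidate. COX5B had 85.7 against 32.4 at COX5BL, which lies next to it on 2L. The exceptions were UQCR-6.4L (107) over UQCR-6.4 (45.8) and COX7AL2 (56.7) over COX7A (53.6). Near-identical copies can share reads, and the treatment of such reads by the authors is not stated in the labels.

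Promoter sequence was then described with 6 motifs, each searched on both strands and counted once per window of 250 bp before to 50 bp after the outermost start. Matches of different motifs were allowed to overlap. GGTCACA, the core of motif 1, which the factor M1BP binds, was in 20 of the 88 promoters (22.7%), against 9.70% of all protein-coding promoters. It was in 5 of the 21 promoters with a peak and in 15 of the 67 without. ATCGAT, the core of the element bound by Dref, was in 29.5% against 23.3%, CAGCTG (an E-box) in 23.9% against 17.7%, and TATAAA in 55.7% against 45.8%. CACGCCC, the core reported for the Huckebein zinc fingers, was in 0 of 88 against 1.56%. Windows of 50 bp on either side of a summit numbered 24 at the 21 genes. They take in a further summit each at ND-42, COX7C and ATPsynbeta. CAGCTG was in 4 of the 24, at ND-B22, ND-B18, ND-13B and ATPsynCF6 (16.7%, against 5.02% of 3150 promoter summits). TATAAA was in 7 (29.2%, against 19.2%) and ATCGAT in 2 (8.33%, against 4.60%). GGTCACA (1.87% of all) and CACGCCC (0.794%) were in 0. Each match is a description of the letters and not a bound site.

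The nuclear respiratory gene (NRG) element, a palindromic sequence described in Drosophila respiratory genes, was in 0 of the 88 promoter windows, against 0.875% of all. In the 1000 bp that follow the promoter window, a window chosen after seeing that promoters held none, 29 of the 88 genes had it (33.0%), against 2.38% of all protein-coding genes and 4 of 73 mitochondrial ribosomal protein genes. By complex it was in 10 of 40 genes of complex I, 2 of 8 of complex II, 2 of 9 of complex III, 6 of 16 of complex IV and 9 of 15 of complex V (60.0%). Of the 20 paralogues, COX7AL had it. Elements were located at 26 of the 29 genes, 27 in all, and 19 lay in an intron of the gene, 4 in its 5′ untranslated region, 2 in its 3′ untranslated region and 2 outside it.

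Among the 9 genes held by all 3 lists 6 had the element (66.7%, against 33.0% of the 88). The same share over all protein-coding genes in all 3 lists was not counted, and the difference was not tested. The 6 genes are shown with the element in capitals and 10 bases on either side, on the strand of the gene in dm6. They are ND-24 at X:17632522-17632551, ND-51 at 2L:6062499-6062528, ND-MNLL at X:7893573-7893602, COX5A at 3R:11820315-11820344, COX6B at X:19744025-19744054 and ATPsynE at 3R:14327257-14327286.
ND-24: tgttccccgaGTTATATAATtggcgacagg
ND-51: atgccatcaaATTATGTAATttttgcgcaa
ND-MNLL: actcgtttttATTACGTAATgcggcaaaat
COX5A: ttccctgttgGTTACGTAACacccaggtta
COX6B: aaaagtacaaGTTACATAACtcgctgatgc
ATPsynE: cggtcggacaATTACATAACttgaagaaga
The elements of ND-24, ND-51 and ND-MNLL are intronic, those of COX6B and ATPsynE lie in the 5′ untranslated region, and that of COX5A lies in intergenic sequence downstream of the gene.

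The strongest summit and the element lay apart at the genes that had both. Of the respiratory chain genes with a peak of the combined list 10 of 21 had the element, and of those without 19 of 67 did (28.4%). With paralogues left out, it was 10 of 20 and 18 of 48. Over all protein-coding genes with a peak of the combined list it was 92 of 3385 (2.72%), against 2.38% of all. At these 10 genes, the element lay 216 to 796 bp from the summit of the strongest peak, with a median of 325 bp. A summit window held the element at 1 of them, ATPsynbeta, in a further peak of that gene. The difference between genes with and without a peak was not tested.

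**Figure D5:**
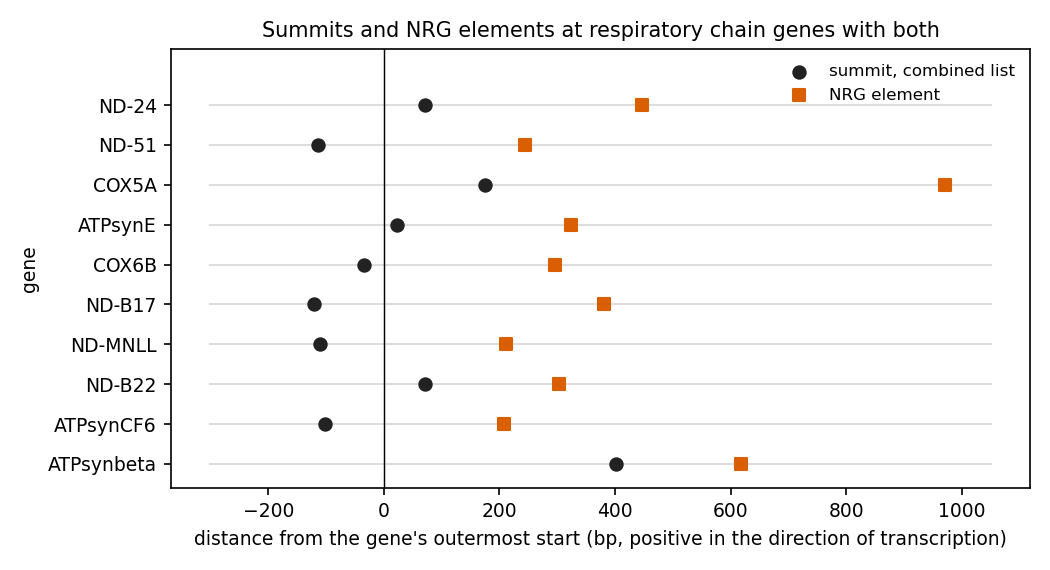
Distance in bp from the outermost start of the gene (x axis, positive in the direction of transcription) of the summit in the combined list (circles) and of the NRG element (squares), for the 10 respiratory chain genes with both. Each element drawn lies downstream of the strongest summit, by 216 to 796 bp. Elements were located in the 1000 bp that follow the promoter window, which held none. Sequence further upstream was not part of that search, so the order is largely set by it. A further peak of ATPsynbeta, not drawn, holds the element in its summit window.

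Other genes of mitochondrial energy metabolism, from 6 lists, were counted in the same way. Outside the symbol prefixes, 4 of 11 subunit and cytochrome c genes held a peak of the combined list, and blw (ATP synthase alpha, 273), levy (a complex IV subunit, 198) and Cyt-c-d (743) did so in all 3 lists. Cyt-c-d encodes a cytochrome c, and its summit lay 362 bp inside the gene. Cyt-c-p, the other cytochrome c gene, held one in the combined list alone (78.8). Of assembly factors and cofactor genes 6 of 15 did, led by CIA30, a complex I assembly factor, with a signal value of 1521 (combined), 883 (replicate 1) and 656 (replicate 2). Genes of the tricarboxylic acid cycle and pyruvate dehydrogenase did so at 7 of 14, with Idh3g (588) and Fum1 highest, and those of mitochondrial DNA maintenance and transcription at 5 of 11, with mtSSB (218) highest. Of protein import genes 1 of 11 did, Hsc70-5 (241). Of regulators 4 of 8 did, and Dref (278), M1BP (183) and ERR (134) were held by all 3 lists while ewg, Ets97D, srl and Myc held none. With 8 to 15 genes a list, these shares span 9.09% to 50% against the background of 24.3%, and differences were not tested.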

How the data were processed

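Peak lists of 2 biological replicates of 1 group were used, with replicate numbers from the labels. Signal values are a score deposited by the authors, with no unit given. The deposited ranked lists also give the −log10 of the IDR, and each peak of a thresholded list has at least 2 there, an IDR of at most 0.01. All lists are on dm6, per the labels. The labels name neither aligner nor peak caller. A possible control that they name was not used here. Genes came from Ensembl release 115 and sequence from the RefSeq Release 6 assembly, whose arms no peak exceeded. Coordinates count from 1. Where a gene had several summits, the one of highest signal value was used, except that the motif counts in summit windows took each summit.

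The NRG window inside genes was chosen after seeing the data. No test was made, since there is 1 group, and shares carry 95% exact binomial intervals (SciPy 1.17.1). The assignment of summits was tested on simulated data. Named in full were up to 5 genes per complex of highest signal value among those in all 3 lists and paralogue pairs. Other values were added after they were seen. Members, lists and motifs were chosen with earlier results of these data known. Listed symbols that did not match the annotation were left out (Coa3, Cox15, sbo, Pam16, Tim44, Tim50, Tom22).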

Additional observations from a re-analysis of the deposited data

How the results depend on the processing

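Alternatives were distances of 250 and 1000 bp, the outermost start only, the conservative list, the stronger 50% of peaks, each replicate alone, summits nearest to the own start, any base of the peak, and leaving out paralogues. Of the values recomputed, 62 stayed within 1.5 times the count, or within the spread between replicates for the medians, and 29 moved. With the stronger 50%, 11 genes held a peak (14.3% of all protein-coding genes did), by complex 7, 0, 1, 2 and 1 from I to V, with a median signal value of 163 and a median position of -114 bp. In a single replicate, 13 to 16 genes held one (16.4% and 18.7% of all did), with 7 to 11 in complex I, 0 in II, 1 in III and 1 to 2 in V, a median signal value of 54.0 to 74.8 and a median position of -98.5 to -97 bp. Where no other gene's start could be nearer than the own start, with ties kept, 17 of the 88 genes held one and 19.2% of all protein-coding genes did. Of these 17 genes 7 were in complex I, and the median position was -27 bp. At 1000 bp 24 of the 88 held one (28.4% of all did), complex II had 2 and the median position was -106 bp. At 250 bp 19 of the 88 held one (19.8% of all did), complex III had 1, the median signal value was 88.5 and the position -35 bp, also -35 bp from outermost starts. Complex III had 1 in the conservative list (23.9% of all) and without paralogues. The medians rest on 24 genes or fewer, and depth is unknown. No paired analysis was possible because there is 1 group.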

Other observations

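Respiratory chain genes on X held a peak of the combined list at 6 of 13 (46.2%, 95% exact binomial interval 19.2 to 74.9), namely ND-ASHI, ND-24, ND-MNLL, ND-B18, UQCR-14 and COX6B. The 75 on other arms did so at 15 (20%, 11.6 to 30.8). Over all protein-coding genes the share was 21.4% on X and 24.8% elsewhere. In all 3 lists it was 4 of 13 on X (30.8%, 9.09 to 61.4) and 5 of 75 elsewhere (6.67%, 2.20 to 14.9). Over all protein-coding genes the share in all 3 lists was 11.7% on X and 13.5% elsewhere. Sex was not collected, per the labels, and the difference was seen in the data and not tested.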
